A study of Mus musculus with 12 samples.

Results

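Genes induced by interleukin-17A (IL-17A) and genes of the acute-phase response were followed in lymph nodes of mice with contact allergy. The 10 members are Saa3, Lcn2, Cxcl1, Cxcl2, Cxcl5, Il1b, Il6, Csf3, Nfkbiz and Zc3h12a. They were taken by symbol from the deposited table of 56941 Ensembl mouse gene IDs, with the most-read ID where a symbol had several, and all 10 were found. They are set against Il17a itself. Of the 10 members, 9 had enough reads to be tested. Cxcl5 had a count of 0 in all 12 libraries.

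RNA of mandibular lymph nodes was sequenced from wild-type (WT) mice and from knockouts of the microRNA miR-451a (miR-451a KO), with 3 libraries in each of 4 groups. Every mouse was sensitized with 100 µl of 0.5% 1-fluoro-2,4-dinitrobenzene (DNFB), a hapten that causes contact allergy, on the shaved abdomen on days 0, 1 and 2. The groups WT_se and KO_se had sensitization alone and were harvested on day 9. The groups WT_DTH and KO_DTH also received 20 µl of 1% DNFB on the left ear on day 9 and were harvested 24 hours later, on day 10. There was no unsensitized group, and challenge and day of harvest cannot be told apart. The labels name no strain, age or cell type of the deletion. They leave unsaid whether each library came from its own animal, so the p-values measure how far these libraries spread, which may be technical. The level of the deleted microRNA itself was not analysed here.

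IL-17A is made mainly by T helper 17 cells and gamma-delta T cells. It binds a receptor of the chains Il17ra and Il17rc on stromal, epithelial and myeloid cells, and acts through the adaptor Act1 (Traf3ip2) and TRAF6 to switch on NF-κB and C/EBP factors and to stabilise short-lived mRNAs. Its classical products are chemokines and G-CSF, which bring neutrophils into tissue, and the acute-phase proteins SAA3 and lipocalin-2. Several of them are also made by myeloid cells under other stimuli, among them IL-1, TNF and microbial products.

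Libraries held 36946696 to 58405576 counts. The values below are CPM, counts scaled to library size after TMM scaling, which corrects library sizes for differences in composition. The tissue label was checked with 10 lymphocyte markers of the lymph node, none of which was at 0 in any library. They held 0.271 to 0.401% of counts. RNA of salivary gland was present in every library, with 20 salivary markers at 6.82 to 14.3% of counts in WT_se, 2.04 to 3.29% in WT_DTH, 2.74 to 6.64% in KO_se and 4.13 to 9.33% in KO_DTH. Mitochondrially encoded protein genes held 13.8 to 19.1%, 4.37 to 5.84%, 11.9 to 16% and 5.57 to 15.7% in the same order. The comparisons were therefore repeated with 2 salivary components as covariates and after leaving out, from each group, the library with most salivary RNA, and calls that ended are given for the members and Il17a and counted for the genes of other lists.

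After challenge of wild-type mice 4 of the 9 members tested rose, namely Saa3, Il1b, Cxcl2 and Lcn2, and none fell. Of all genes tested 9.77% rose and 8.97% fell in that comparison. In the knockout Saa3 and Il1b rose after challenge. Between the genotypes Lcn2 was higher in sensitized knockout nodes, where Il17a was 38.3-fold higher. No member passed the test between the challenged genotypes, where 0.514% of all genes were higher in the knockout and 0.0849% lower. With shares that small, this count cannot tell whether the members followed Il17a. Il17a was 9.65-fold higher in challenged knockout nodes, but did not pass by edgeR with salivary components as covariates (adjusted p = 0.695). The members fall into those that were high after challenge in both genotypes (Saa3, Il1b), those whose group means lay close together (Nfkbiz, Zc3h12a), and Lcn2, which was lower in WT_se than in all other libraries. Cxcl2, which rose in wild type, lies between these patterns, and Cxcl1, Il6 and Csf3 did not pass the test.

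**Figure D1:**
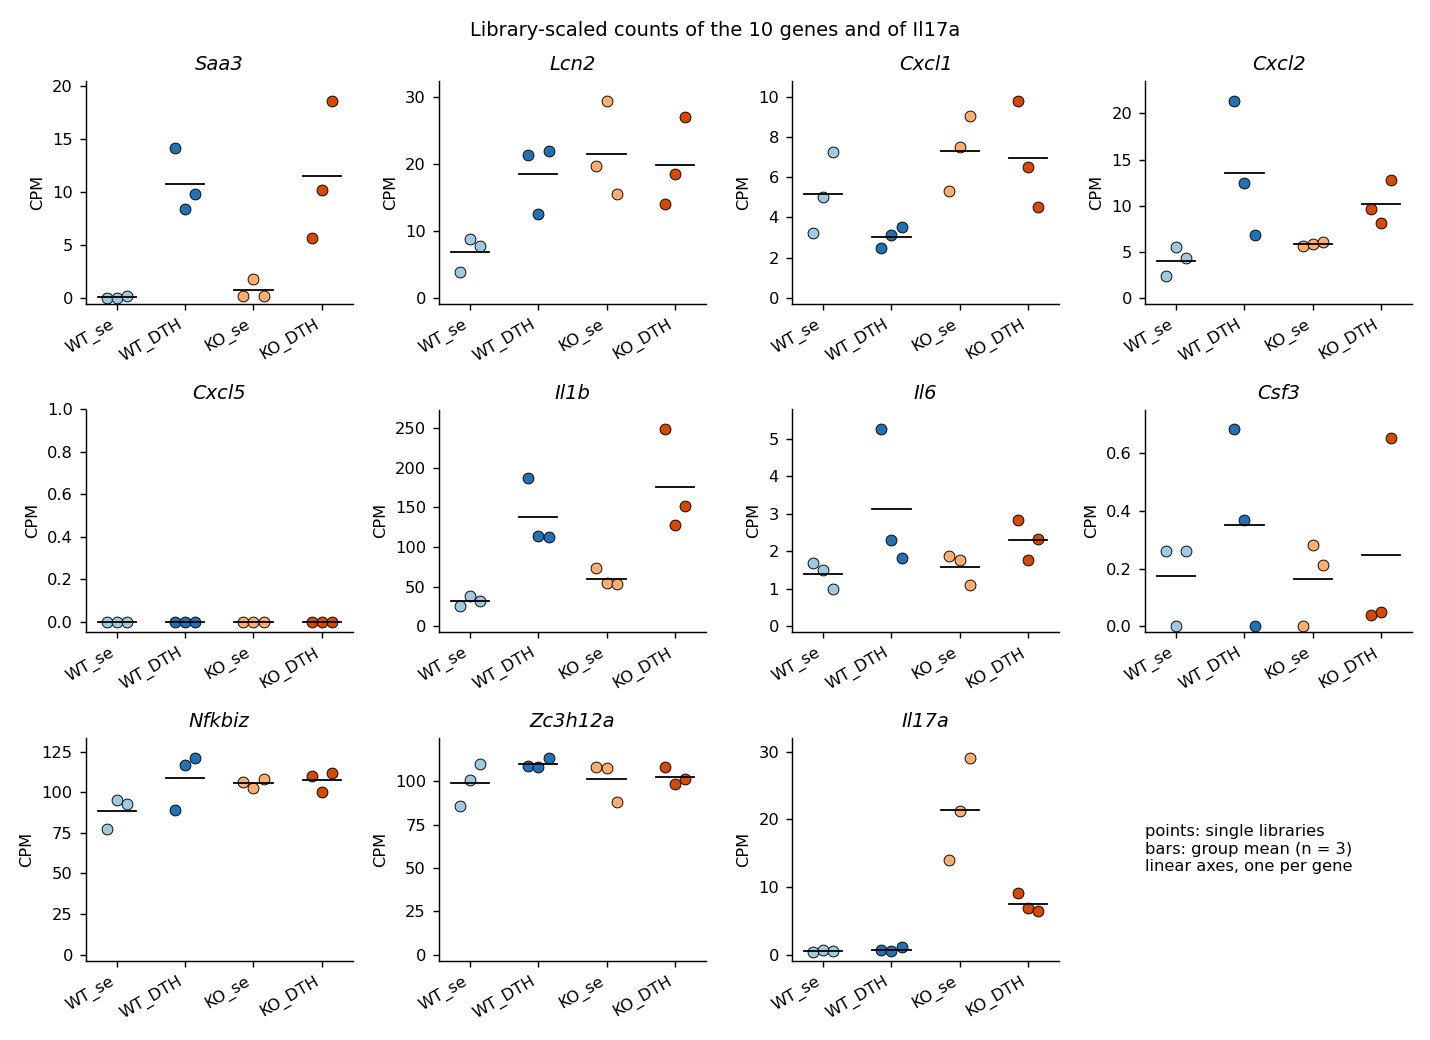
Level of each member and of Il17a in CPM (TMM-scaled) in the 4 groups. Points are single libraries and bars are group means; the libraries of Saa3 lie at 0 to 1.76 CPM in the sensitized groups and at 5.63 to 18.6 CPM after challenge.

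Saa3 (ENSMUSG00000040026) encodes serum amyloid A3, an acute-phase apolipoprotein made outside the liver by macrophages and epithelium. It was at 0, 0 and 0.191 CPM in the libraries of WT_se and at 14.2, 8.35 and 9.81 CPM in those of WT_DTH. In the knockout it was at 0.197, 1.76 and 0.192 CPM when sensitized and at 5.63, 10.2 and 18.6 CPM after challenge. The challenged libraries thus lay above the sensitized ones in both genotypes, without overlap. The sensitized wild-type nodes held 0, 0 and 8 counts of it.

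The fitted rise of Saa3 was 7.23 ± 1.07 (SE) on the log2 scale in wild type (edgeR's quasi-likelihood test, adjusted p = 0.000731) and 4.01 ± 0.81 in the knockout (adjusted p = 0.00803). Both folds rest on few counts before challenge. Without the third library of WT_se, the only WT_se library with counts, the fitted value in wild type was 11.96, and without the second library of KO_se that in the knockout was 5.86. KO_se lay above WT_se in every library, but only just, with the nearest libraries at 0.192 and 0.191 CPM. Leaving out single libraries gave log2 differences of 1.46 to 8.04, with edgeR adjusted p of 0.083 to 0.517. With all libraries the difference of 3.31 ± 1.14 did not pass the test by edgeR (adjusted p = 0.111). It was 3.43 by the DESeq2 Wald test and passed there (adjusted p = 0.0438). KO_DTH and WT_DTH overlapped, at means of 11.5 ± 6.59 and 10.8 ± 3.03 CPM (SD, n = 3 each). Saa1 was at 0 throughout, and Saa2 and Saa4 were above 0 in 1 library each, at 0.0682 and 0.0861 CPM. These genes are near relatives of Saa3, so reads could be shared among them.

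The 150 bases directly upstream of the Saa3 start are shown because they hold a match to a C/EBP-type motif, C/EBP factors being known inducers of serum amyloid genes. The sequence is from RefSeq (GRCm38.p6, minus strand, chr7:46715677-46715826), 5′ to 3′, with the match in capitals, 99 bases upstream of the start.
Saa3: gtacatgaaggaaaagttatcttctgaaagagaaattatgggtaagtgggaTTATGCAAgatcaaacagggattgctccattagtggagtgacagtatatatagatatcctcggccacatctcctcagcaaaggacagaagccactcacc

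Lcn2 (ENSMUSG00000026822) encodes lipocalin-2, a protein that binds bacterial siderophores and is stored in neutrophil granules as well as secreted by epithelium. Levels were 3.86, 8.70 and 7.76 CPM in WT_se and 21.3, 12.4 and 21.9 CPM in WT_DTH. In the knockout they were 19.6, 29.4 and 15.5 CPM when sensitized and 14.0, 18.5 and 27.0 CPM after challenge. The WT_se libraries were below all 9 others, which overlapped one another.

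Challenge raised Lcn2 in wild type by 1.45 ± 0.34 on the log2 scale (2.73-fold, edgeR adjusted p = 0.011). In the knockout the difference was -0.12 ± 0.33 (adjusted p = 0.881), with a 95% interval of -0.84 to 0.60. In sensitized nodes Lcn2 was 3.17-fold higher in the knockout (log2 1.66 ± 0.34, adjusted p = 0.0168). Leaving out the first library of WT_se ended that call (log2 1.39, adjusted p = 0.061), as did leaving out the second of KO_se (log2 1.37, adjusted p = 0.0737). After challenge the genotypes overlapped, with a difference of 0.09 ± 0.33 (95% interval -0.62 to 0.81, adjusted p = 0.954). The test of whether the challenge effect differed between genotypes gave -1.57 ± 0.48 for Lcn2 with an adjusted p of 0.108 by edgeR, and 0.0125 by the DESeq2 Wald test.

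Neutrophil markers moved with Lcn2. The 15 markers, all detected, held 0.00713 to 0.0126% of counts in WT_se, 0.0279 to 0.0474% in WT_DTH, 0.0287 to 0.0489% in KO_se and 0.0211 to 0.0567% in KO_DTH. Of them 7 were higher after challenge in wild type and 5 in sensitized knockout nodes, against 9.77% and 3.76% of all genes. After challenge in the knockout 0 passed by edgeR, with 2 at an unadjusted p below 0.05. Of all genes 5.81% rose and 3.86% fell there. The genes whose pattern over the 12 libraries was closest to Lcn2 were Ltf, encoding the granule protein lactoferrin, and S100a9, a subunit of calprotectin. The log2 ratio to Lcn2 had an SD of 0.25 for Ltf and 0.255 for S100a9, where log2 CPM of Lcn2 itself had an SD of 0.843. The CPM ratio of Lcn2 to Ltf stayed within 0.414 to 0.679 in all libraries, and that to S100a9 within 0.117 to 0.226. In whole nodes, more neutrophils and more Lcn2 RNA per cell cannot be told apart. The part of neutrophil number in the Lcn2 differences was not tested.

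**Figure D2:**
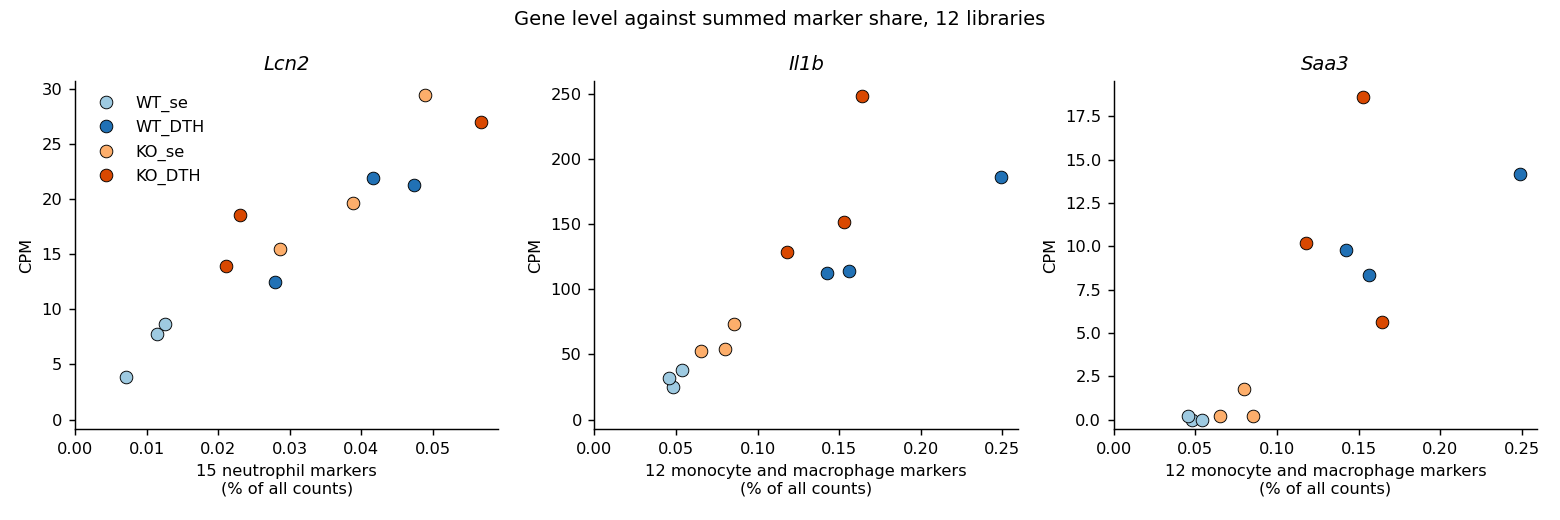
Level of Lcn2 against the summed share of 15 neutrophil markers, and of Il1b and Saa3 against that of 12 monocyte and macrophage markers, in CPM and percent of counts. Each point is 1 library; the WT_se libraries lie lowest for both Lcn2 and the neutrophil markers, at up to 8.70 CPM and 0.0126%.

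Cxcl1, Cxcl2 and Cxcl5 encode chemokines that attract neutrophils through the receptor Cxcr2. Cxcl1 and Cxcl2 are closely related neighbouring genes, so reads of similar stretches could be assigned to either. Cxcl5 (ENSMUSG00000029371) had no count, where 3 counts would have been 0.0527 to 0.0864 CPM depending on the library. A lower level could not have been seen at this depth.

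Cxcl2 (ENSMUSG00000058427) was at 2.39, 5.46 and 4.29 CPM in WT_se and at 21.4, 12.4 and 6.82 CPM in WT_DTH. It was at 5.63, 5.79 and 6.03 CPM in KO_se and at 9.59, 8.11 and 12.8 CPM in KO_DTH. The challenged libraries lay above the sensitized ones in both genotypes. The rise passed the test in wild type (3.34-fold, log2 1.74 ± 0.37, edgeR adjusted p = 0.00657). In the knockout the difference was 0.80 ± 0.36 (adjusted p = 0.196), and 0.0426 when the model held only the libraries of KO_se and KO_DTH. The 2 effects were not shown to differ (interaction -0.94 ± 0.51, adjusted p = 0.413).

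Cxcl1 (ENSMUSG00000029380) did not follow Cxcl2. It was at 3.22, 5.01 and 7.26 CPM in WT_se, 2.46, 3.10 and 3.55 CPM in WT_DTH, 5.33, 7.49 and 9.06 CPM in KO_se and 9.81, 6.52 and 4.53 CPM in KO_DTH. Sensitized and challenged libraries overlapped in both genotypes. The difference after challenge was -0.77 ± 0.34 in wild type (edgeR adjusted p = 0.138) and -0.07 ± 0.33 in the knockout (adjusted p = 0.935). The challenged knockout libraries all lay above the challenged wild-type ones, by 2.29-fold on average, with an adjusted p of 0.118 by edgeR and 0.0176 by the DESeq2 Wald test. Among all tested genes those closest to Cxcl1 in pattern were Pls3 and Podnl1, with SDs of the log2 ratio of 0.265 and 0.295, while Cxcl2 was closest to Soat2 (0.319) and Il1r2 (0.326).

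Both chemokine promoters, and that of Il6, hold a match to the κB-type motif GGGANTTTC, shown because NF-κB is known to drive these genes. Each line gives the 150 bases directly upstream of the start, 5′ to 3′, from RefSeq (GRCm38.p6, plus strand), at chr5:90891095-90891244 for Cxcl1, chr5:90903749-90903898 for Cxcl2 and chr5:30012964-30013113 for Il6. Capitals mark the κB-type match, 71, 97 and 44 bases upstream of the start, and in Il6 also a C/EBP-type match at 128 bases.
Cxcl1: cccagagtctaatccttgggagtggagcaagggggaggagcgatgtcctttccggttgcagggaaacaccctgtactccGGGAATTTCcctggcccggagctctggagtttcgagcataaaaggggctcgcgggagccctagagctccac
Cxcl2: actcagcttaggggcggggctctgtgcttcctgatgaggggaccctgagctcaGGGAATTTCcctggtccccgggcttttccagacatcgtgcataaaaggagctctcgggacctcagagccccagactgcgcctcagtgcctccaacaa
Il6: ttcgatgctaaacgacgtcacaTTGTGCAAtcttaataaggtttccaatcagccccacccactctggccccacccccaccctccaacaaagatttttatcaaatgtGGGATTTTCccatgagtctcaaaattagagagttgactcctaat

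Promoters were given for 7 of the 10 members and for Il17a, and 250 bases upstream of each start were searched on both strands, with matches of different motifs free to overlap. The κB-type motif GGGANTTTC occurred in 0.94% of 32851 mouse promoters searched over the same length, the C/EBP-type motif TTNNGCAA in 9.56% and the AP-1-type motif TGANTCA in 6.75%. Beyond the matches shown, Lcn2 held a C/EBP-type match 216 bases upstream, and Il6 and Il17a an AP-1-type match at 249 and 244 bases. Il1b and Zc3h12a held none of the 3 motifs in this window. A κB-type match was thus present in Cxcl2, which rose in wild type, and in Cxcl1 and Il6, which did not pass the test.

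Il1b (ENSMUSG00000027398) encodes the inflammatory cytokine IL-1β, made chiefly by monocytes, macrophages and neutrophils. It was at 25.0, 37.9 and 32.3 CPM in WT_se and at 186, 114 and 112 CPM in WT_DTH. In the knockout it was at 73.6, 54.1 and 52.7 CPM when sensitized and at 248, 128 and 152 CPM after challenge. The challenged libraries lay above the sensitized ones in both genotypes, and KO_se lay above WT_se.

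Challenge raised Il1b 4.34-fold in wild type (log2 2.12 ± 0.27, edgeR adjusted p = 0.000258) and 2.93-fold in the knockout (log2 1.55 ± 0.26, adjusted p = 0.00282). The 2 effects were not shown to differ (interaction -0.57 ± 0.36, adjusted p = 0.514). Sensitized knockout nodes had 1.90-fold more Il1b than sensitized wild-type nodes, which missed the threshold by edgeR (log2 0.92 ± 0.26, adjusted p = 0.0607) and passed it by the DESeq2 Wald test (adjusted p = 0.0411). After challenge the genotypes overlapped (log2 0.36 ± 0.26, adjusted p = 0.604).

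Monocyte and macrophage markers held a larger share of counts after challenge in both genotypes, where Il1b and Saa3 were also higher. The 12 markers, all detected, held 0.0454 to 0.0537% of counts in WT_se, 0.142 to 0.249% in WT_DTH, 0.065 to 0.0852% in KO_se and 0.118 to 0.164% in KO_DTH. After challenge 10 of them rose in wild type, against 9.77% of all genes, and 8 in the knockout, against 5.81%. Fcgr1, a high-affinity receptor for immunoglobulin G, was among them. Their part in the rise of Il1b and Saa3 was not tested. The genes closest to Il1b in pattern were Tfec (SD of the log2 ratio 0.263), a transcription factor found in macrophages, and Pla2g4a (0.289), which releases arachidonic acid. The SD of log2 CPM of Il1b itself was 1.06. For Saa3 the nearest genes were Ly6i (1.598) and F7 (1.641), where Saa3 itself had an SD of 3.331.

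Il6 (ENSMUSG00000025746) encodes IL-6, the main inducer of the acute phase in liver. It was low, at 1.70, 1.50 and 1.00 CPM in WT_se and 5.25, 2.29 and 1.83 CPM in WT_DTH. In the knockout it was at 1.88, 1.76 and 1.11 CPM when sensitized and at 2.83, 1.76 and 2.31 CPM after challenge. The wild-type groups did not overlap, and the difference of 1.16 ± 0.41 on the log2 scale missed the threshold by edgeR (adjusted p = 0.0672). It passed by the DESeq2 Wald test (adjusted p = 0.0379), with a block by replicate number (0.0467) and without the third library of WT_DTH (0.037). In the knockout the groups overlapped (log2 0.54 ± 0.40, edgeR adjusted p = 0.467).

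Csf3 (ENSMUSG00000038067), encoding the neutrophil growth factor G-CSF, was near the limit of detection. Its highest level was 0.682 CPM, in WT_DTH, and it was at 0 in 1 library each of WT_se, WT_DTH and KO_se. The groups overlapped in every comparison, and the SE of its log2 differences was at least 1.59. No change of Csf3 could have been shown at this depth unless it was large.

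Nfkbiz and Zc3h12a encode regulators that act on the other members. Nfkbiz (ENSMUSG00000035356) encodes IκBζ, a nuclear cofactor of NF-κB needed for secondary targets such as Lcn2 and Il6. Zc3h12a (ENSMUSG00000042677) encodes Regnase-1, a ribonuclease that degrades mRNAs including Il6 and Nfkbiz. Both are also expressed in lymphocytes.

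Nfkbiz was at 77.4, 95.3 and 92.7 CPM in WT_se, 89.3, 116 and 121 CPM in WT_DTH, 106, 102 and 108 CPM in KO_se and 110, 100.2 and 112 CPM in KO_DTH. The WT_se libraries were below all of KO_se but overlapped WT_DTH. The largest difference was 0.30 ± 0.11 on the log2 scale, after challenge in wild type (1.23-fold, edgeR adjusted p = 0.0824). It was 0.46 with an adjusted p of 0.00893 without the first library of WT_DTH, and 0.29 by the DESeq2 Wald test (adjusted p = 0.049). In the knockout the 95% interval of the challenge effect was -0.22 to 0.27.

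Zc3h12a was at 85.4, 101 and 110 CPM in WT_se, 109, 108 and 114 CPM in WT_DTH, 108, 107 and 88.2 CPM in KO_se and 108, 98.2 and 101 CPM in KO_DTH. All groups overlapped. The 95% intervals of its log2 differences were -0.06 to 0.38 for challenge in wild type, -0.20 to 0.24 for challenge in the knockout, -0.18 to 0.26 between sensitized genotypes and -0.32 to 0.12 between challenged genotypes. Nfkbiz and Zc3h12a kept a nearly fixed ratio to each other, with an SD of the log2 ratio of 0.166. That of Lcn2 to Cxcl2 was 0.707, and that of Lcn2 to Il17a 1.903. Genes nearest in pattern were Mcm4 (0.074) and Nup62 (0.089) for Nfkbiz, and Med24 (0.083) and Dmac2 (0.087) for Zc3h12a. The SD of log2 CPM was only 0.182 for Nfkbiz and 0.129 for Zc3h12a, so that many genes of steady level lie as near.

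**Figure D3:**
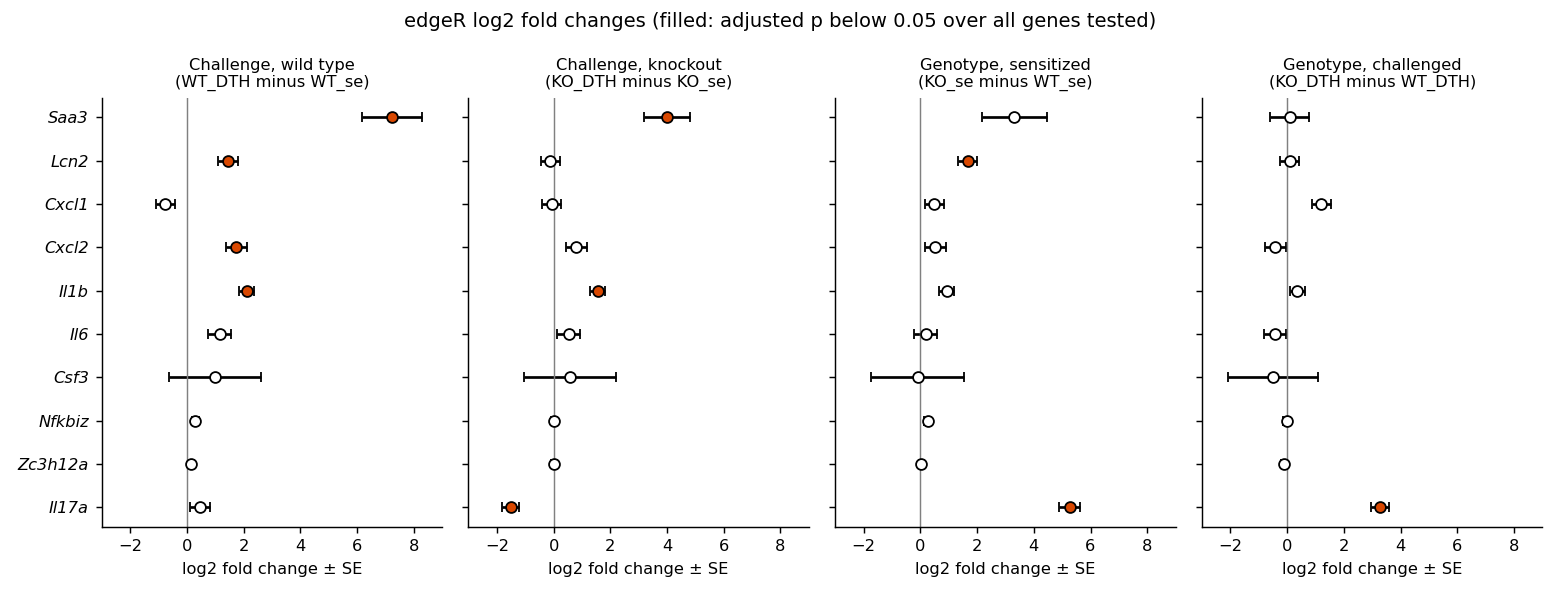
Log2 fold change of each member tested and of Il17a in the 4 comparisons of 2 groups. Bars are the SE of the model and filled points have an adjusted p below 0.05; Saa3 and Il1b are filled for challenge in both genotypes, and Il17a is filled for both comparisons of genotype.

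Il17a (ENSMUSG00000025929) itself was at 0.345, 0.696 and 0.619 CPM in WT_se and 0.637, 0.606 and 1.07 CPM in WT_DTH. It was at 13.9, 21.2 and 29.1 CPM in KO_se and at 9.12, 6.94 and 6.46 CPM in KO_DTH. The wild-type groups overlapped, and every knockout library lay above every wild-type library. Il17a was higher in the knockout by 5.26 ± 0.36 on the log2 scale when sensitized (edgeR adjusted p = 1.6e-05) and by 3.27 ± 0.33 after challenge (adjusted p = 0.000819). It fell after challenge in the knockout, by 1.51 ± 0.29 (adjusted p = 0.00648), and did not pass in wild type (0.48 ± 0.36, adjusted p = 0.418). With 2 salivary components the difference between challenged genotypes was 2.50 ± 0.60 and no longer passed (adjusted p = 0.695). Without each group's library of most salivary RNA the fall in the knockout was not called (log2 -1.17, adjusted p = 0.116). Closest to Il17a in pattern were the T cell receptor segments Trdv4 (SD of the log2 ratio 0.791) and Tcrg-V6 (0.845), which gamma-delta T cells use, where Il17a itself had an SD of 2.296.

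The members did not keep a fixed ratio to Il17a. In wild type these ratios rest on few counts of Il17a, at 12, 26 and 26 in WT_se and 28, 33 and 61 in WT_DTH. Per kilobase of exon, Lcn2 stood at 4.99 to 5.60 times the level of Il17a in WT_se and at 9.12 to 14.9 times in WT_DTH. In the knockout it stood at 0.237 to 0.629 and 0.683 to 1.86 times. For Il1b these ranges were 32.0 to 44.4, 64.4 to 179.8, 1.11 to 3.24 and 11.3 to 16.7 in the order WT_se, WT_DTH, KO_se and KO_DTH. For Saa3 they were 0 to 0.138, 4.11 to 9.998, 0.00297 to 0.0374 and 0.278 to 1.29. For Lcn2, Il1b and Saa3 the ratio was higher after challenge than before in both genotypes, with no overlap of libraries. Others differed in wild type, where the ratio of Cxcl1 was lower after challenge (2.07 to 3.20 against 4.49 to 7.33) and those of Cxcl2, Il6, Csf3, Nfkbiz and Zc3h12a overlapped. In the knockout, where Il17a itself fell, the ratios of Cxcl1, Cxcl2, Il6, Nfkbiz and Zc3h12a were also higher after challenge, without overlap. That of Csf3 overlapped. For Nfkbiz the ratio was 2.81 to 4.05 against 0.866 to 1.78, while the challenge effect on Nfkbiz was 0.02 ± 0.11. Neither Lcn2 nor any of these other genes passed the edgeR test for challenge in the knockout in the model of all 12 libraries.

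Levels can be compared between genes only per length, as CPM per kilobase of annotated exon. The length counts all annotated exons of a gene together, 2606 bases for Saa3, 2623 for Lcn2 and 1171 for Il17a. The transcripts present may hold only part of these. The order of genes below and the size of the ratios to Il17a above therefore depend on the lengths used. In WT_se the order of group means was Zc3h12a (34.2 ± 4.30, SD, n = 3), Nfkbiz (17.6 ± 1.92), Il1b (16.6 ± 3.39), Cxcl1 (2.75 ± 1.08), Lcn2 (2.58 ± 0.980), Cxcl2 (1.96 ± 0.750), Il6 (0.576 ± 0.148), Csf3 (0.123 ± 0.106) and Saa3 (0.0244 ± 0.0422). Il17a, at 0.473 ± 0.157, lay between Il6 and Csf3. Nfkbiz and Il1b did not differ beyond their SDs, nor did Cxcl1, Lcn2 and Cxcl2, nor Il6 and Il17a, nor Csf3 and Saa3.

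In WT_DTH Il1b led at 72.1 ± 22.2 CPM per kilobase, above Zc3h12a (38.2 ± 1.06) and Nfkbiz (21.7 ± 3.43). Then came Lcn2 (7.07 ± 2.02), Cxcl2 (6.55 ± 3.55) and Saa3 (4.14 ± 1.16), which overlapped in their SDs. Saa3 thus moved from the lowest levels, with Csf3, to that of Lcn2 and Cxcl2. Below them came Cxcl1 (1.62 ± 0.293), Il6 (1.29 ± 0.765), Il17a (0.659 ± 0.223) and Csf3 (0.248 ± 0.242), each overlapping its neighbour in this order.

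In KO_se Zc3h12a (35.1 ± 3.93) and Il1b (31.5 ± 6.12) overlapped at the top. Nfkbiz (21.0 ± 0.590) overlapped with Il17a (18.3 ± 6.49), which was above Lcn2 (8.20 ± 2.73), Cxcl1 (3.89 ± 1.00), Cxcl2 (2.81 ± 0.0962), Il6 (0.653 ± 0.170), Saa3 (0.275 ± 0.348) and Csf3 (0.116 ± 0.103). Cxcl1 and Cxcl2 overlapped there, as did Saa3 with Il6 and with Csf3. In KO_DTH Il1b (92.3 ± 33.4) was followed by Zc3h12a (35.6 ± 1.80) and Nfkbiz (21.4 ± 1.25). Lcn2 (7.55 ± 2.51), Il17a (6.41 ± 1.21), Cxcl2 (4.91 ± 1.15) and Saa3 (4.40 ± 2.53) each overlapped their neighbour in this order, as did Cxcl1 (3.71 ± 1.42). Il6 (0.948 ± 0.219) and Csf3 (0.175 ± 0.248) were lowest.

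**Figure D4:**
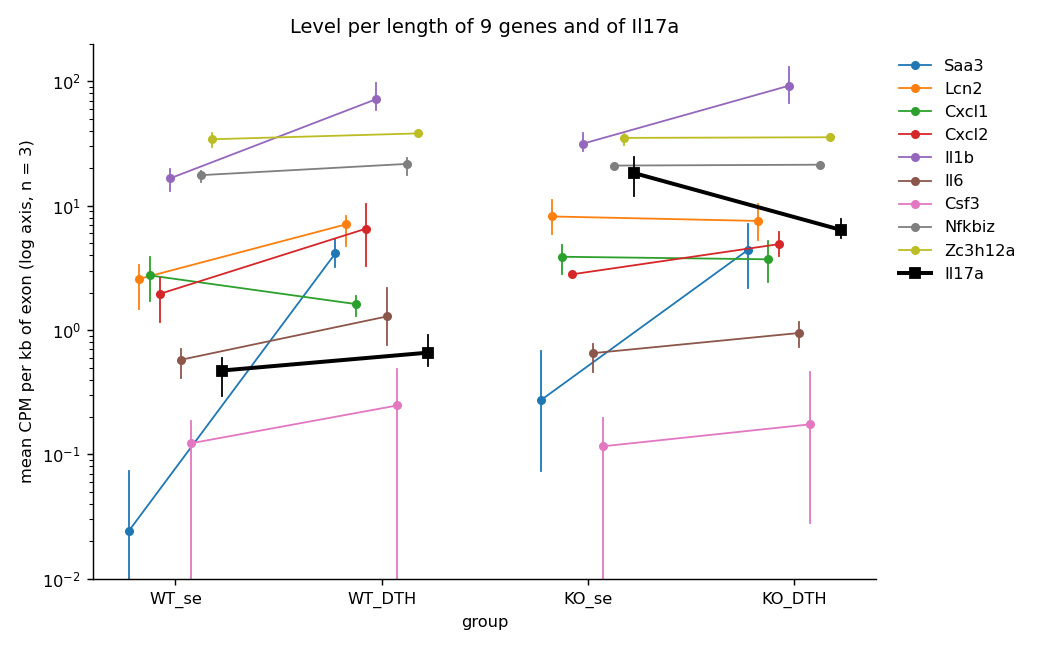
Group mean level per kilobase of exon of each member detected and of Il17a, on a log axis. Points are group means, vertical lines run from the lowest to the highest library and to the bottom of the axis where the lowest is 0, and joined points are the 2 groups of a genotype; Saa3 goes from 0.0244 to 4.14 CPM per kilobase in wild type.

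Counts of members called are set against all 20034 genes tested with the same model. After challenge in wild type 4 of 9 members rose and 0 fell, where 9.77% of all genes rose and 8.97% fell. The median log2 difference of the members was 1.16 and that of all genes -0.01. In the knockout 2 of 9 rose and 0 fell, against 5.81% and 3.86% of all genes, with medians of 0.54 and 0.00. Between sensitized genotypes 1 of 9 was higher in the knockout and 0 lower, against 3.76% and 1.4% of all genes, with medians of 0.49 and -0.01.

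Between challenged genotypes 0 of 9 members passed by edgeR, against 0.514% of all genes higher and 0.0849% lower, with 1 member (Cxcl1) at an unadjusted p below 0.05 and 1 called by DESeq2. For the interaction 0 of 9 passed by edgeR, against 2.11% of all genes, with 2 members (Saa3 and Lcn2) at an unadjusted p below 0.05 and 1 (Lcn2) called by DESeq2. The comparisons share groups with each other and are given side by side only.

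With 2 salivary components as covariates no member was called in any comparison by edgeR. The log2 rises after challenge in wild type were then 4.66 ± 1.64 for Saa3 (adjusted p = 0.264), 1.61 ± 0.56 for Il1b (0.256), 1.17 ± 0.74 for Cxcl2 (0.576) and 0.43 ± 0.63 for Lcn2 (0.853). In the knockout they were 6.30 ± 1.79 for Saa3 (0.13) and 1.57 ± 0.49 for Il1b (0.168). Lcn2 between sensitized genotypes was 1.08 ± 0.45 (0.296). That model called 100 genes in all for challenge in wild type, where the model without it called 3755. Of the groups compared, only KO_se and KO_DTH overlapped in salivary share. In the other comparisons this model cannot fully tell the effect of challenge or genotype from that of salivary content. Without each group's library of most salivary RNA, the calls of Saa3, Il1b and Lcn2 for challenge in wild type and of Il1b in the knockout remained, and those of Cxcl2 in wild type (adjusted p = 0.0553), Saa3 in the knockout (0.0752) and Lcn2 between sensitized genotypes (0.0544) were lost.

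The remaining genes of the pathway were described from lists. With 2 salivary components 4 of the 31 calls named by rule from these lists remained for challenge in wild type (Il1rn, Ccl7, Serpina3g and Fcgr1). In the knockout 7 of 19 remained, between sensitized genotypes 3 of 12 (Il17f, Il1r1 and Il6st) and between challenged genotypes 0 of 2. Without each group's library of most salivary RNA 25, 15, 4 and 0 remained. Of 6 IL-17 family cytokines 4 were tested, and Il17b and Il25 were at 0. Il17f, which pairs with IL-17A, was higher with Il17a in sensitized knockout nodes (log2 3.88 ± 0.53, edgeR adjusted p = 0.00218) and fell by 1.77 ± 0.47 after challenge there (adjusted p = 0.0326). That fall was not called in 5 of the 6 fits without 1 of the libraries compared. Nor was it called by edgeR with 2 salivary components (adjusted p = 0.294), without the libraries of most salivary RNA (0.204) or with a replicate block (0.0595).

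Of 11 receptor chains and adaptors 2 rose and 1 fell after challenge in wild type, against 9.77% and 8.97% of all genes. In the knockout 0 passed by edgeR, with 2 at an unadjusted p below 0.05. Of all genes 5.81% rose and 3.86% fell there. Il17ra, the shared receptor chain, rose by 0.47 ± 0.08, and Il17re, which with Il17ra binds IL-17C, fell by 1.21 ± 0.34 (edgeR adjusted p = 0.0255). Il17re was higher in the knockout both when sensitized (log2 1.37 ± 0.33, adjusted p = 0.0323) and after challenge (1.74 ± 0.34, adjusted p = 0.0422), with library levels of 0.474 to 3.87 CPM. Leaving out 1 of the libraries compared ended the Il17re call in 4 of 6 fits for challenge in wild type and in 5 of 6 for each comparison of genotype, and both salivary alternatives ended all 3.

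Of 12 receptors, decoys and antagonists of the member cytokines 4 rose and 2 fell after challenge in wild type. Of all genes 9.77% rose and 8.97% fell there. In the knockout 3 rose, against 5.81% of all genes. The rises included 2 genes whose products restrain IL-1. Il1rn, encoding the IL-1 receptor antagonist, rose from 3.34, 1.77 and 2.83 CPM in WT_se to 50.6, 34.5 and 31.6 CPM in WT_DTH, and from 5.65, 3.27 and 3.93 CPM in KO_se to 62.8, 35.8 and 32.5 CPM in KO_DTH. Its rise of 3.88 ± 0.33 in wild type and 3.35 ± 0.31 in the knockout on the log2 scale passed the test under every alternative run, the salivary ones included. The decoy receptor Il1r2 rose by 1.74 ± 0.20 in wild type and 0.95 ± 0.20 in the knockout, and Fpr2, a receptor for serum amyloid A, by 3.34 ± 0.44 and 1.88 ± 0.41. In wild type Csf3r, the G-CSF receptor of neutrophils, rose by 1.86 ± 0.32. With 2 salivary components Il1r2 and Fpr2 were not called in either genotype, at 1.10 (adjusted p = 0.226) and 2.97 (0.159) in wild type, nor was Csf3r (0.45, adjusted p = 0.766).

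Of 20 other genes known to be induced by IL-17A 15 were tested, and Defb3, Defb4 and Ptx3 were at 0. In wild type 5 rose after challenge, among them the monocyte chemokine Ccl7 (2.70 ± 0.23) and the calprotectin subunits S100a8 (1.73 ± 0.39) and S100a9 (1.52 ± 0.38). In the knockout 2 rose, Ccl7 and Ccl2. Of all genes 9.77% rose in wild type and 5.81% in the knockout, and 3.76% were higher in sensitized knockout nodes. The 2 genes higher in sensitized knockout nodes were S100a8 (2.11 ± 0.39) and S100a9, which also belong to the neutrophil list. With 2 salivary components S100a8 and S100a9 were at 0.22 and 0.32 for challenge in wild type (adjusted p = 0.931 and 0.906) and at 1.29 and 1.31 between sensitized genotypes (0.181 and 0.234), none of them called. The Ccl2 call was lost under both salivary alternatives (adjusted p = 0.173 and 0.206) and in 5 of 6 fits without 1 of the libraries compared. Between challenged genotypes 0 passed by edgeR, with 1 at an unadjusted p below 0.05, where 0.514% of all genes were higher and 0.0849% lower. The list medians were 1.51, 0.40, 0.84 and 0.13 for challenge in wild type and knockout and for genotype when sensitized and challenged.

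Of 20 other acute-phase genes 11 were tested. The classical liver genes Saa1, Crp, Apcs, Fga and Fgb were at 0 in every library. In wild type 3 rose after challenge and 3 fell, against 9.77% and 8.97% of all genes. Serpina3g, a serpin expressed in activated leukocytes, rose by 2.61 ± 0.21 in wild type and by 1.93 in the knockout, and haptoglobin (Hp), also stored in neutrophil granules, by 1.63 ± 0.31 in wild type. Lbp fell by 1.53 and Cp by 1.13 in wild type (edgeR adjusted p = 0.0241 and 0.0277), and the sign of Lbp turned to 0.46 with 2 salivary components. Leaving out 1 of the libraries compared ended the call of Cp in 4 of 6 fits and that of Lbp in 3 of 6.

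Of 15 regulators of NF-κB and C/EBP 9 rose and 1 fell after challenge in wild type, and 8 rose and 0 fell in the knockout. Bcl3, an atypical IκB like IκBζ, rose by 1.28 ± 0.15 in wild type and 0.81 in the knockout, while its relative Nfkbiz did not pass by edgeR in either. Nfkbie rose by 0.90 ± 0.08 and 0.56. Of 9 RNA-decay partners and relatives of Regnase-1, 2 rose in each genotype after challenge, Upf1 and Malt1 in wild type and Upf1 and Arid5a in the knockout. The largest of these rises was 0.47, of Arid5a, whose protein protects Il6 mRNA from Regnase-1. Of all genes 9.77% rose in wild type and 5.81% in the knockout. Leaving out 1 of the libraries compared ended the Malt1 call in 4 of 6 fits. It ended those of Upf1 in wild type and Arid5a in the knockout in 2 of 6 each. Both salivary alternatives ended all of these calls.

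Other cytokines that are known to induce the members were also followed, with 9 of 12 tested. After challenge 5 rose in wild type and 1 in the knockout, with list medians of 0.71 and 0.13 on the log2 scale. The shares of all genes that rose were 9.77% in wild type and 5.81% in the knockout. Osm, encoding oncostatin M of activated myeloid and T cells, rose in both, by 1.49 ± 0.23 and 1.55. Il18 rose by 1.28 ± 0.31 in wild type. Between sensitized genotypes only Il22, a cytokine of the same T cells as IL-17A, was higher in the knockout (3.20 ± 0.80), at 0.748 to 0.983 CPM against 0 to 0.173 CPM. That call was lost in all 6 fits without 1 of the libraries compared (log2 2.64 to 4.01).

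Cells that answer to IL-17A in tissue were followed by markers as well. Of 12 markers of fibroblastic stroma 6 fell after challenge in wild type and 1 in the knockout, at 0.0173 to 0.0378% of counts over all libraries. Of 11 endothelial markers 2 fell in wild type and 1 rose in the knockout, where 8.97% of all genes fell and 5.81% rose, so these counts are near the background. Keratinocyte markers were near 0, at no more than 0.000521% of counts, with Krt1, Lor and Flg at 0. After challenge in wild type, where 4 members rose, 16 of 19 salivary markers, 13 of 13 mitochondrial genes and 5 of 8 erythroid markers fell, and 2 of the 4 keratinocyte markers tested fell. The part of these shifts in the rise of the members was not tested.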

How the data were processed

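Values are the estimated counts per gene that the authors deposited for 12 libraries. RNA was extracted with RNeasy and prepared for sequencing with the NEBNext Ultra II Directional kit, per the labels' protocols. Reads were processed with fastp 0.23.2, HISAT2 2.2.1 and StringTie 2.2.1 on GRCm39, per the submitters' processing notes. The values were whole numbers as deposited, so none was rounded. Symbols were matched from a list of gene names for 51948 of 56941 IDs. Exon lengths were read from GENCODE M21, whose build (GRCm38) is older than that of the counts, so no gene coordinates are given from it. IDs without a symbol held 0.326 to 0.543% of counts and stayed in the fit.

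Genes were filtered with filterByExpr (minimum count 10), which kept 20034, and tested with edgeR 4.0.16 (TMM, quasi-likelihood, R 4.3.3). All 12 libraries entered a model of 4 group means with 8 residual degrees of freedom, which gave the effect of challenge within a genotype, that of genotype within a state, and the interaction. P-values are two-sided and adjusted by Benjamini-Hochberg over all genes tested, with a threshold of 0.05, and intervals are 95%. Pattern likeness is the SD over libraries of the log2 CPM ratio (prior count 2). The fits were also run on simulated counts. These held no common shift of salivary or mitochondrial RNA between groups, so they do not cover such shifts. The limit for a count of 0 is 3 counts and covers counting error only.

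Alternatives were DESeq2 (1.42.0) size factors and Wald test, no filter, a mean of at least 50 counts, only the libraries compared, a replicate block, 2 principal components of the salivary list as covariates, the fit without each group's library of most salivary RNA, and fits without each library. The members, and the 17 lists of 218 other entries (217 matched, 3 by synonym), were chosen with earlier results of these data known. Genes named from a list are the members of the list past the threshold, up to 4 by smallest p, or else up to 3 of highest level, and the 2 genes most like each member. Genes at 0 are named from their lists as well, and Saa2 and Saa4 were named after their values were seen. Python 3.11.15 with pandas 2.3.3 and matplotlib 3.10.9 drew the figures.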

Additional observations from a re-analysis of the deposited data

Results flagged for a closer look

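The challenge effect on Il17a differed between the genotypes by the interaction test of edgeR, at -1.99 ± 0.46 on the log2 scale (adjusted p = 0.0476). Il17a fell from 21.4 ± 7.59 CPM in KO_se to 7.50 ± 1.42 CPM in KO_DTH, while it was at 0.554 ± 0.184 and 0.772 ± 0.261 CPM in WT_se and WT_DTH (SD, n = 3). The value lies close to the threshold. Leaving out any of the 12 libraries ended the call, at -2.22 to -1.70 with adjusted p of 0.0525 to 0.117.

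Cebpd, which encodes a C/EBP factor that IL-17A is known to induce, showed a challenge effect in the knockout that was higher than that in wild type by 3.26 ± 0.65 (edgeR interaction, adjusted p = 0.0309). It was at 5.64, 9.45 and 26.3 CPM in WT_se, 5.80, 5.66 and 4.53 CPM in WT_DTH, 6.85, 5.49 and 8.98 CPM in KO_se and 24.3, 38.0 and 16.2 CPM in KO_DTH. The libraries of highest Cebpd in WT_se and KO_DTH were also those of the largest salivary share in their group, at 14.3 and 9.33% of counts. With 2 salivary components as covariates the sign of the Cebpd interaction turned, to -0.55. Leaving out single libraries gave 2.38 to 3.63 and ended the call in 8 of 12 fits.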

How the results depend on the processing

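Across 115 gene results and their alternatives, 1598 of 1656 values kept their direction and 58 reversed. The calls that ended were 196 values and those gained 12. Of the members, 4, 2, 1, 0 and 0 were called for challenge in wild type, challenge in the knockout, genotype when sensitized, genotype when challenged and the interaction. These counts were 0 in all with 2 salivary components as covariates. They were 3, 1, 0, 0 and 0 without each group's library of most salivary RNA, 6, 2, 3, 1 and 1 by the DESeq2 Wald test, and 4, 3 and 2 with 0 for the fourth when only the libraries compared were fitted. DESeq2 size factors, no filter and a mean of at least 50 counts left them as they were. Leaving out single libraries gave 4 to 5, 2 to 2, 0 to 1, 0 to 0 and 0 to 1. The causes of these changes were not tested.

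Over all genes the calls numbered 3755, 1938, 1035, 120 and 422 in the same order, 100, 296, 182, 1 and 0 with salivary components, 4557, 2984, 2301, 932 and 1240 by the Wald test, and 2464, 673, 351, 83 and 168 without the libraries of most salivary RNA. Without a filter they numbered 3251, 1470, 848, 64 and 267. Single libraries left out gave 2566 to 3136, 1039 to 1772, 369 to 748, 14 to 471 and 0 to 830.

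Replicate numbers did not pair the libraries: over 18 pairs with the same number r of their deviations was -0.098 to 0.141, and 1 of 12 libraries correlated best with its own number. With a replicate block 5, 2, 1, 0 and 0 members and 3400, 1729, 880, 38 and 128 genes were called, and signs turned for Cxcl1 after challenge in the knockout (0.00), Csf3 between sensitized genotypes (0.12) and Saa3 between challenged genotypes (-0.12).

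With salivary components the sign turned after challenge in wild type for Cxcl1 (0.08), Il6 (-0.18), Csf3 (-1.48), Mmp9 (-0.07), Lbp (0.46) and Malt1 (-0.18), and after challenge in the knockout for Lcn2 (0.21), Csf3 (-0.95) and Nfkbiz (-0.11). It turned between sensitized genotypes for Il6 (-0.61) and Zc3h12a (-0.02), between challenged ones for Il6 (1.00), and in the interaction for Saa3 (1.64), Cxcl1 (-0.98), Il6 (1.61), Csf3 (0.52) and Cebpd (-0.55). Without the libraries of most salivary RNA it turned after challenge in the knockout for Cxcl1 (0.16) and Zc3h12a (-0.04), between sensitized genotypes for Csf3 (0.10), and between challenged ones for Lcn2 (-0.08), Csf3 (0.02) and Nfkbiz (0.08). None of these reversed values passed the test.

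Leaving out single libraries turned signs within these ranges. After challenge in the knockout they were -1.83 to 1.20 for Csf3, -0.39 to 0.16 for Cxcl1, -0.42 to 0.17 for Lcn2, -0.02 to 0.07 for Nfkbiz and -0.07 to 0.07 for Zc3h12a. Between sensitized genotypes they were -0.71 to 0.50 for Csf3, -0.01 to 0.38 for Il6 and -0.06 to 0.13 for Zc3h12a. Between challenged genotypes they were -2.93 to 0.39 for Csf3, -0.77 to 0.05 for Cxcl2, -0.74 to 0.13 for Il6, -0.23 to 0.27 for Lcn2, -0.18 to 0.03 for Nfkbiz and -0.48 to 0.39 for Saa3, and in the interaction -2.86 to 0.47 for Csf3.

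In CPM, without division by exon length, the order of members changed in several places. For example, Nfkbiz stood above Zc3h12a in KO_se (106 against 101) and KO_DTH (107 against 102), and Lcn2 was level with Il17a in KO_se (21.5 against 21.4). Per kilobase Zc3h12a and Il17a were the higher ones. Depth limits Csf3, Cxcl5, the sensitized levels of Saa3 and the wild-type levels of Il17a most.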

Other observations

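Between sensitized genotypes 1 of 12 receptors, decoys and antagonists of the member cytokines was higher in the knockout and 1 lower, and 1 of 9 RNA-decay genes was lower, where 3.76% of all genes were higher and 1.4% lower. Il6st, encoding the signal-transducing receptor chain gp130, was at 373, 357 and 344 CPM in WT_se and at 238, 233 and 226 CPM in KO_se (log2 difference -0.62 ± 0.10, edgeR adjusted p = 0.00527). That difference passed the test under every alternative run. After challenge the genotypes overlapped in Il6st, at 254, 282 and 220 CPM in WT_DTH and 245, 205 and 251 CPM in KO_DTH. Arid5a, whose protein binds and stabilises Il6 mRNA, was at 540, 480 and 502 CPM in WT_se and at 366, 369 and 329 CPM in KO_se (-0.52 ± 0.11, adjusted p = 0.016). The call of Arid5a was lost with 2 salivary components (adjusted p = 0.121), without the libraries of largest salivary share (0.0671) and without any 1 of 3 single libraries. Arid5a also overlapped between challenged genotypes, at 571, 678 and 504 CPM in WT_DTH and 516, 483 and 472 CPM in KO_DTH. Il1r1, the signalling receptor of IL-1, was 3.32-fold higher in sensitized knockout nodes (log2 1.73 ± 0.22, adjusted p = 0.00172), at 13.7, 18.3 and 13.5 CPM against 4.58, 5.52 and 3.62 CPM, and it passed under every alternative run. After challenge Il1r1 was at 13.1, 9.4 and 9.2 CPM in KO_DTH and 5.5, 8.1 and 7.2 CPM in WT_DTH, without overlap. None of these 3 genes passed between challenged genotypes by edgeR.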
